A study of Canis lupus familiaris with 24 samples.

Results

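MAL was followed as a single gene in aspirated node cells from 4 dogs with lymphoma of B-cell type. It was chosen by its measured values: the difference between phases on these same arrays ran in opposite directions between dogs, so its own changes are given as a description with no test. All probes of the array whose RefSeq accession belongs to dog MAL were taken, which gave 2 of 43603 probes and 1 of the 832 genes that could be named on the array. Dog 1 was a male Shih Tzu of 10 years, dog 2 a male Doberman of 9 years, dog 3 a castrated male French Bulldog of 3 years and dog 4 a spayed female French Bulldog of 5 years. Cells of a peripheral node were drawn with a fine needle from every dog in a phase labelled drug-sensitive and again in one labelled drug-resistant, called sensitive and resistant here. The drugs are not named in the labels, no healthy node is among the samples, and every dog has 3 one-colour arrays per phase, which makes 8 groups. Nothing states whether these 3 came from separate aspirates, so p-values within a dog measure only the spread between arrays, which may be technical. An aspirate holds tumour cells together with the other cells of the node.

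MAL codes for a small, very hydrophobic protein of the MARVEL family that spans the membrane several times and sits in cholesterol- and glycolipid-rich patches called membrane rafts. In T lymphocytes it carries the kinase LCK and other raft cargo to the cell surface and is found at the contact with antigen-presenting cells. In epithelial cells it serves delivery of proteins to the apical membrane, and it is also a component of compact myelin. In human lymphoma it is known as a marker of primary mediastinal B-cell lymphoma. In the RefSeq annotation of the dog assembly UU_Cfam_GSD_1.0 the gene lies between MRPS5 and MALL, a close relative of MAL, neither of which was matched to a probe here.

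The level of a gene is given throughout as the log2 of its processed signal minus the 75th percentile of the same array, so a negative level is a signal below that percentile and a difference of 1 is 2-fold. Spots well above background made up 71.0% to 80.9% of each array, and the 75th percentile of signal ranged from 676 to 1117. A probe was kept where all 3 arrays of at least 1 group lay well above background, as both MAL probes did, and 27720 genes or unnamed transcripts were tested. Of 16 listed B cell genes 2 were measured, MS4A1, which codes for the antigen CD20, and CD40. Both lay well above background on all 24 arrays, and neither was called between the phases of any dog. With no healthy node and no lymphoma of another type among the samples, these levels cannot check the B-cell label.

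MAL was higher in the resistant than in the sensitive phase of dog 1, and lower in the resistant phase of dogs 2 and 3, with a smaller difference of the latter kind in dog 4. In dog 1 the brighter of its probes (A_11_P148098) had levels of -7.20, -6.94 and -6.44 in the sensitive phase and of -3.69, -3.41 and -3.42 in the resistant phase. The resistant arrays of dog 1 all lay above the sensitive ones, with a gap of 2.75 between the nearest arrays. Its group means were -6.86 ± 0.39 and -3.51 ± 0.15 (SD, n = 3 arrays), a difference of 3.35 (SE 0.15). MAL was well above background on 1 of 3 sensitive arrays and on all 3 resistant arrays of dog 1, so the size of the difference depends on a signal near the limit of detection.

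In dog 2 the order was the opposite. The sensitive arrays had MAL levels of -3.96, -4.12 and -4.04 and the resistant arrays of -6.95, -7.02 and -6.93. The groups did not overlap, and the resistant arrays lay close together at the bottom of the measured range. The means were -4.04 ± 0.08 and -6.97 ± 0.05 (SD, n = 3 arrays), a difference of -2.92 (SE 0.15). No resistant array of dog 2 was well above background, so the difference is best read as a bound: MAL was at least 5.04-fold lower. Here the mean of the bright phase is set against, on each dim array, the lowest signal of any probe well above background, or MAL's own signal where that is higher.

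Dog 3 in the sensitive phase had the highest MAL levels of the study, at -1.98, -1.99 and -1.96, and its resistant arrays had levels of -4.97, -5.01 and -4.83. All 6 arrays were well above background, which makes dog 3 the best measured of the large differences. The means were -1.97 ± 0.02 and -4.94 ± 0.09 (SD, n = 3 arrays), a difference of -2.96 (SE 0.15), or 7.79-fold lower in the resistant phase.

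In dog 4 the sensitive arrays had MAL levels of -3.79, -3.85 and -3.87 and the resistant arrays of -4.54, -5.11 and -5.03. All 6 were well above background and the groups did not overlap, but the gap between them was 0.68, and resistant array 1 stood above the others. The means were -3.84 ± 0.04 and -4.89 ± 0.31 (SD, n = 3 arrays), a difference of -1.06 (SE 0.15), or 2.08-fold lower. The resistant arrays of dog 4 were on a slide of their own, scanned in a later session, so the slide and the phase cannot be told apart there. The local background beside the MAL spot was 32, 32 and 29 intensity units on that slide, against 22, 22 and 23 on the sensitive arrays of dog 4.

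**Figure D1:**
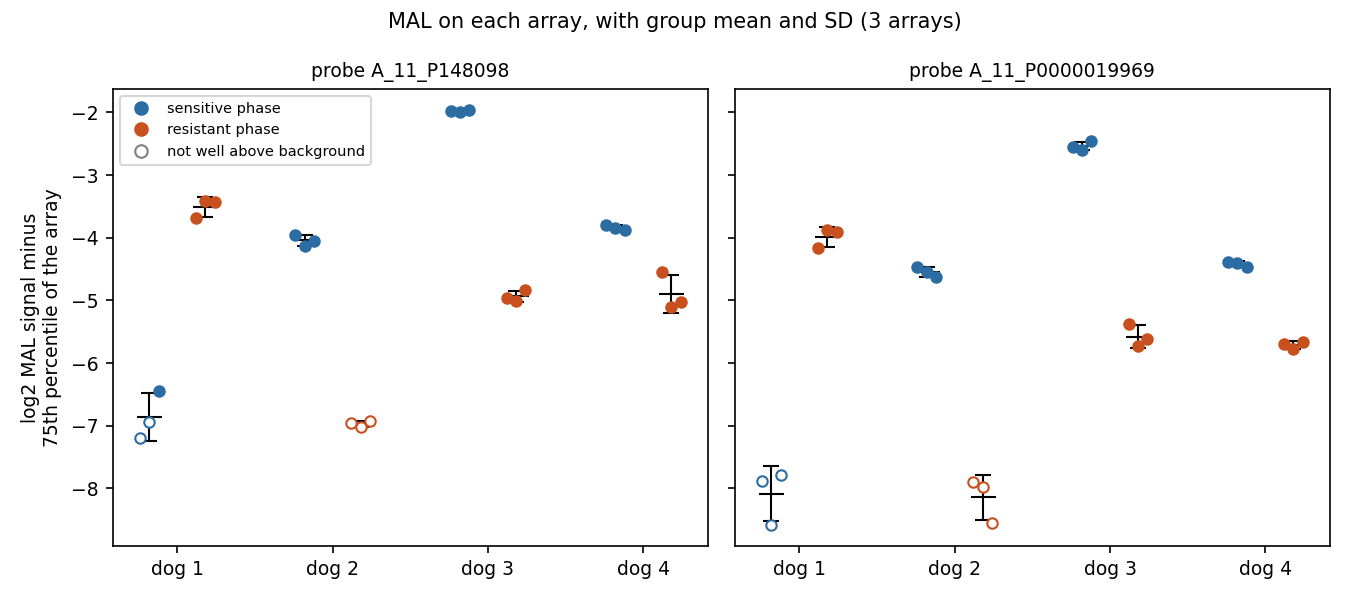
Level of MAL on each of the 24 arrays (y axis, log2 signal minus the 75th percentile of the array) by dog (x axis) for the brighter probe (left) and the dimmer probe (right). Points are arrays, blue for the sensitive and orange for the resistant phase, open where not well above background; lines give the mean and SD of 3 arrays. Dog 1 goes up from sensitive to resistant, while dogs 2, 3 and 4 go down, with dog 4 the smallest difference (-1.06 for the brighter probe).

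The dimmer MAL probe (A_11_P0000019969) gave the same direction in each dog. In dogs 1 to 4 its differences were 4.10 (SE 0.18), -3.60, -3.04 and -1.30. It was not well above background on any sensitive array of dog 1 or resistant array of dog 2, so it was at least 5.72-fold higher in the resistant phase of dog 1 and at least 3.57-fold lower in that of dog 2. On this probe resistant array 1 of dog 4, at -5.69, lay between the other resistant arrays of that dog (-5.78 and -5.67), so the higher value seen there with the brighter probe was not seen with the dimmer one. Its groups did not overlap in any of the 4 dogs.

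In intensity units the brighter probe's processed signal in the sensitive phase of dog 1 was 5.63, 6.47 and 8.77, with scanner errors of 1.72, 2.06 and 1.95. In the resistant phase of that dog the signal was 68.7, 86.1 and 80.7. The strongest signal was 204, on sensitive array 3 of dog 3, and the resistant arrays of dog 2 had 7.64, 7.24 and 7.82 with errors of 2.66, 2.09 and 2.54. MAL was thus a dim transcript in these samples, measured within a few scanner errors of background in 2 of the 8 groups and far above its error in dog 3 sensitive.

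Ordered by the mean of the brighter probe, the groups ran from dog 3 sensitive (-1.97) through dog 1 resistant (-3.51), dog 4 sensitive (-3.84), dog 2 sensitive (-4.04), dog 4 resistant (-4.89), dog 3 resistant (-4.94) and dog 1 sensitive (-6.86) to dog 2 resistant (-6.97). The ranges of the arrays overlapped for 2 pairs of neighbours, the resistant groups of dogs 4 and 3, and the lowest pair, dog 1 sensitive and dog 2 resistant. MAL was well above background on 1 of the 6 arrays of that lowest pair, so neither their order nor their distance from the other groups has a measured size. Over the 4 dogs the mean change was -0.90 (SE 1.48, n = 4 dogs; lower in 3 and higher in 1), with signals near background taken as measured.

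How often other transcripts behaved in this way was counted in limma's fit to all 24 arrays, in which a transcript was called at an adjusted p under 0.05 and at least 2-fold. Of the 27720 transcripts, the shares called in dogs 1 to 4 were 11.9%, 13.8%, 6.77% and 5.56%. In dog 1, 3.83% were called higher in the resistant phase, the direction of MAL. For dogs 2, 3 and 4 the shares called higher were 3.98%, 1.34% and 4.06%, and those called lower, as MAL was, were 9.84%, 5.43% and 1.5%. Without resistant array 1 of dog 3 the transcripts called higher in that dog numbered 791 rather than 371. In all of dogs 2, 3 and 4 together, 0.382% were called lower. Calls in opposite directions in at least 2 dogs were made for 1049 transcripts (3.78%), of which 42 carried a gene symbol. The order of MAL, higher in dog 1 and lower in each of dogs 2, 3 and 4, was found for 7 transcripts (0.0253%). With a symbol there were only MAL itself and CCL19, the chemokine that draws T cells and dendritic cells into the node by way of the receptor CCR7. These counts contain the contrast MAL was chosen for and describe how common it is. The count of 7 was added after seeing the data.

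CCL19, which is made by stromal cells of the T cell zone, was followed array by array because of this shared order. In dog 1 its levels were -3.28, -3.21 and -3.20 in the sensitive and -0.78, -0.69 and -0.73 in the resistant phase, a difference of 2.50 (SE 0.04). In dog 2 they were 0.34, 0.37 and 0.25 and then -2.56, -2.58 and -2.54, a difference of -2.88. In dog 3 they were 1.89, 1.89 and 1.91 and then -0.74, -0.80 and -0.76, a difference of -2.66, and in dog 4 they were -1.55, -1.49 and -1.62 and then -2.91, -2.79 and -2.81, a difference of -1.28. No phases overlapped, and CCL19 was well above background on all 24 arrays, so its differences, unlike those of MAL in dogs 1 and 2, were measured on both sides. In bulk samples fewer cells that make a transcript and less of it per cell cannot be told apart, for MAL as for CCL19.

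Likeness to MAL over the 8 group means was measured with Pearson's r, as a description, since the 8 points are pairs from 4 dogs. Of the 717 other named genes, KLK1 (r = 0.90), VPS52 (0.90), KLRA1 (0.86), CCL19 (0.85), CYP2A13 (0.84), SERPINF1 (0.83), ELANE (0.76), TNNT2 (0.75), XYLT2 (0.75) and KCNA5 (0.75) came first. Of these 10 genes 5 differed by at least 2-fold in some dog (KLK1, CCL19, SERPINF1, ELANE and TNNT2) and the other 5 in none. TNNT2 was called in no dog and was well above background on 14 of 24 arrays. VPS52, a subunit of a vesicle tethering complex, had differences of 0.70, -0.43, -0.32 and -0.12 in dogs 1 to 4, and KLRA1, a receptor gene of NK cells, of 0.27, -0.92, -0.44 and -0.26. The phases of VPS52 overlapped in dogs 2, 3 and 4. KLK1, which codes for tissue kallikrein, had 2.25 in dog 1 and 0.08 in dog 4, and its other probe had -0.31 in dog 1. The sensitive arrays of dog 1 had a KLK1 SD of 1.28, though the phases did not overlap there. The other VPS52 probes had differences from -0.32 to 0.21 in dog 1. The other CYP2A13 probe, well above background on 12 of 24 arrays, had 0.05, 0.06, 0.83 and 0.89 in dogs 1 to 4. The CYP2A13 probe used had 0.95, -0.12, -0.27 and -0.07. The likenesses of KLK1, VPS52 and CYP2A13 thus rest on 1 probe each. ELANE, coding for neutrophil elastase, rose in dog 1 (1.44, detected on 1 of 3 sensitive arrays) and fell in dog 3 (-2.12), with 0.08 in dog 2. With each dog's own mean taken out first, CCL19 was the named gene most like MAL (r = 0.99). That r rests only on the changes in the 4 dogs, for which MAL was chosen and whose order CCL19 shares, so it adds no separate evidence. Over the 24 arrays, which counts the 3 arrays of a group as separate points, CCL19 also ranked 1 of 717 (r = 0.84).

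Among the genes with the most opposite pattern were SOCS3 (r = -0.84), the interferon and interleukin signalling suppressor, TFF2 (-0.78), MCPH1 (-0.78) and TNNI3 (-0.78). SOCS3 had differences of -0.96, 0.58, 0.45 and 0.20 in dogs 1 to 4, all under 2-fold. Across all 27719 other transcripts the median r was -0.09, with 24 above 0.9 and 24 below -0.9, none of them with a symbol. Without dog 1 the list of the first 10 named genes shared 1 gene with the full list, and CCL19 stood at 30 of 717 (r = 0.81).

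T cells are the lymphocytes in which MAL is best known, and 6 of 25 listed T cell genes could be measured. No T cell gene rose in dog 1, where MAL was higher, and 3 of 6 fell there. In dog 2, 6 of 6 fell, in dog 3, 4 of 6 fell, and in dog 4 none was called. The share of all transcripts called lower was 8.11% in dog 1, 9.84% and 5.43% in dogs 2 and 3, and 1.5% in dog 4. The median change of the 6 genes was -1.05, -4.75, -1.30 and 0.47 in dogs 1 to 4, against -0.06, 0.11, 0.02 and 0.07 for all transcripts. The count in dog 1 was 1 after normexp background correction, after quantile normalisation and in the raw signals, and 0 when every array had to detect a probe; that in dog 3 was 1 after normexp, in the raw signals and under that filter, which left 3 in dog 2.

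By gene, CTLA4, the inhibitory receptor of activated and regulatory T cells, was at least 9.73-fold lower in the resistant phase of dog 1. Its levels there were -3.36, -3.39 and -3.47 and then -6.61, -7.71 and -7.40, none of the last well above background. CD28, the main costimulatory receptor, had levels of -5.91, -6.11 and -6.41 and then -8.58, -6.61 and -6.81 in dog 1, a difference of -1.19 in which resistant array 1 stood well below the others, and 1 of 3 resistant arrays was well above background. ICOS, a second costimulatory receptor, was called in dog 1 but not well above background in either phase. In dog 2 CD28 was at least 29.6-fold and ICOS at least 11.0-fold lower. There CTLA4 had a change of -4.66, CD8A, the coreceptor of cytotoxic T cells, of -4.84 and CD4, that of helper T cells, of -1.39. CD40LG, the helper signal to B cells, fell in dogs 2 and 3 (-2.16 and -1.32) and had -0.94 in dog 1. In dog 4, where MAL was lower, CD4 had a difference of 0.79, ICOS of 0.71 (not well above background on any sensitive array), CTLA4 of 0.64 and CD28 of 0.30. CD40LG had -0.06 and CD8A -0.36 there, and none of the 6 was called. A second CD8A probe, dimmer than the one used, had differences of -1.71, -6.81, -1.56 and -1.03 in dogs 1 to 4. Against MAL the 6 genes had r from 0.05 (CTLA4) to 0.60 (CD40LG), with a median of 0.28.

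Summed over the 6 T cell genes on the linear scale (each signal divided by the 75th percentile of its array), the level was 0.453 to 0.523 in dog 1 sensitive and 0.277 to 0.305 in dog 1 resistant. It was 4.59 to 4.83 and then 0.317 to 0.326 in dog 2, 1.10 to 1.15 and then 0.574 to 0.677 in dog 3, and 0.577 to 0.638 and then 0.727 to 0.752 in dog 4. The sum of these 6 genes therefore moved with MAL in dogs 2 and 3 and against it in dogs 1 and 4. A linear sum follows its brightest genes, and in dog 3 sensitive CD40LG (-0.68) was the brightest of the 6. In dog 4 the median sum went only from 0.596 to 0.747, none of the 6 genes was called, and CD8A and CD40LG were lower. The phases of dog 4 were also on separate slides. The part of T cells in the MAL values of any dog was not tested. Of 14 listed NK and cytotoxic genes 2 were measured, KLRD1 and CCL5. Both fell in dogs 1 and 2, and KLRD1 fell in dog 3, while 8.11%, 9.84% and 5.43% of all transcripts were called lower in dogs 1 to 3.

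**Figure D2:**
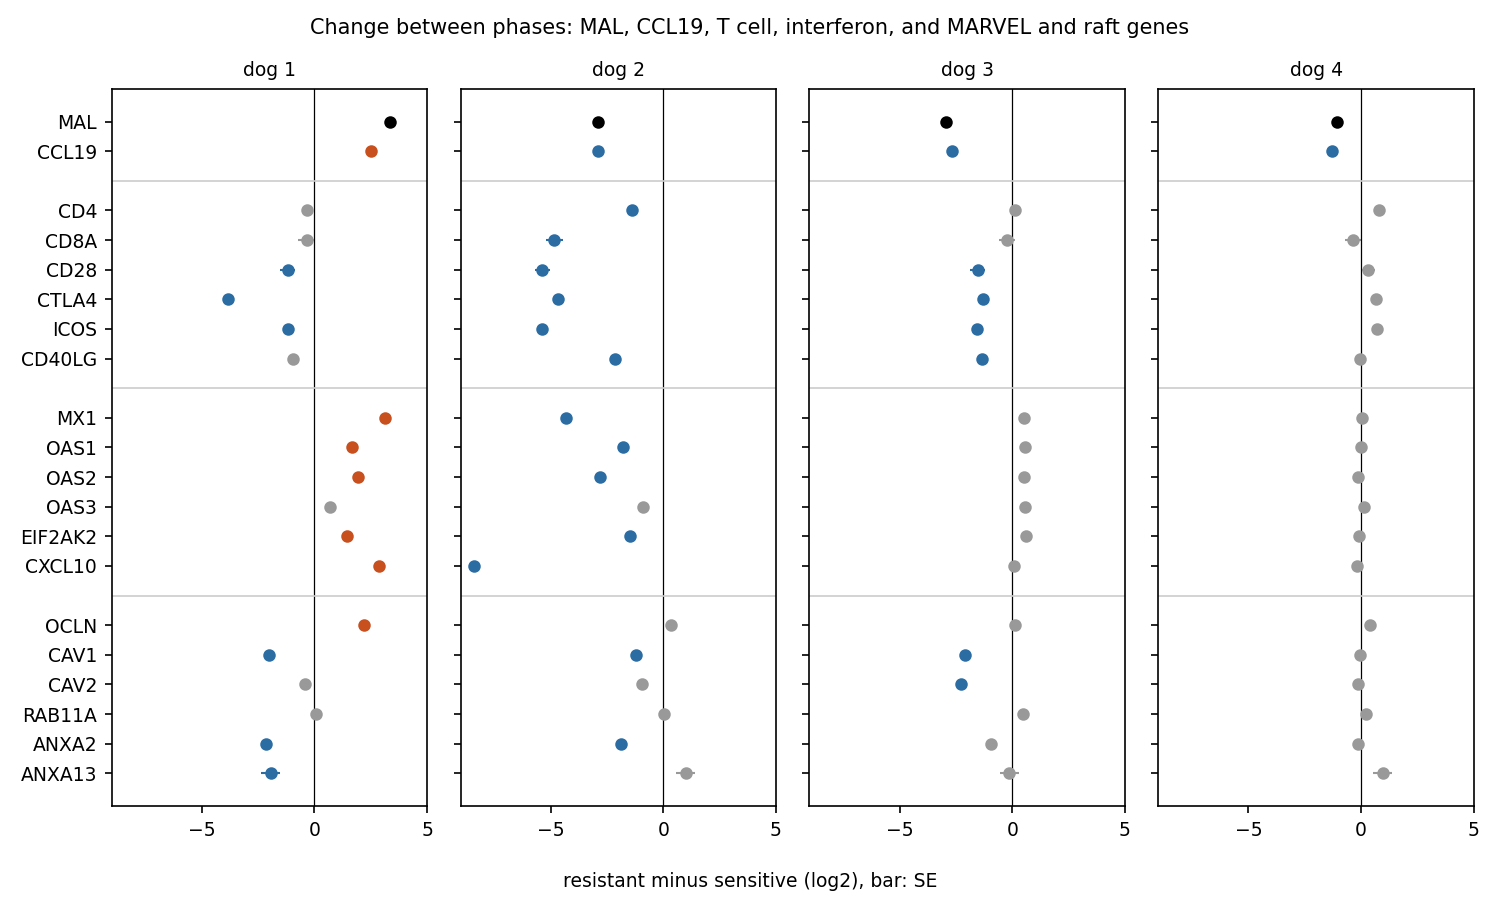
Resistant minus sensitive difference (x axis, log2; bars are SE, often smaller than the point) in each dog for MAL and CCL19 at the top, then the T cell, interferon-response, and MARVEL and raft genes. Orange points were called higher and blue points lower in limma's fit, grey points were not called, and MAL is black because no test was made for it. In dog 1 MAL and CCL19 are on the right with the interferon-response genes while the T cell genes are left of 0; in dog 4 MAL and CCL19 are the only points beyond -1.

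The raft and MARVEL relatives of MAL gave no shared direction. Of 25 listed genes other than MAL, 6 were measured. In dog 1, OCLN, coding for the tight junction protein occludin, which also has a MARVEL domain, rose by 2.21 (2 of 3 sensitive and 3 of 3 resistant arrays well above background), while ANXA2, a raft-associated annexin gene, fell by 2.13. CAV1, coding for the scaffold protein of caveolae, and ANXA13 were also called lower in dog 1, but CAV1 was not well above background in either phase and ANXA13 was so on 1 of 6 arrays. No array of dogs 2, 3 and 4 had OCLN well above background. In dog 2 CAV1 (-1.23) and ANXA2 (-1.88) fell, in dog 3 CAV1 (-2.10) and CAV2 (-2.28), and in dog 4 none was called. RAB11A, a GTPase of recycling endosomes, had differences from 0.04 to 0.46 and was called in no dog. For comparison, 8.11%, 9.84%, 5.43% and 1.5% of all transcripts were called lower in dogs 1 to 4, and 3.83% higher in dog 1.

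Interferon-response genes were the list whose members lay closest to MAL as a group over the 8 means among the lists with at least 5 measured genes, with a median r of 0.57 (0.48 to 0.67 for 6 of 15 genes). In dog 1, 5 of 6 rose and in dog 2, 5 of 6 fell, as MAL was higher and lower there. MX1, an antiviral GTPase gene, had differences of 3.14, -4.33, 0.51 and 0.05 in dogs 1 to 4, and the chemokine gene CXCL10 of 2.88, -8.40, 0.07 and -0.16. In dogs 3 and 4 none of the 6 was called, and the median change was 0.55 and -0.05, where MAL differed by -2.96 and -1.06. The backgrounds are those given above for each dog (3.83% called higher in dog 1 and 9.84% lower in dog 2).

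**Figure D3:**
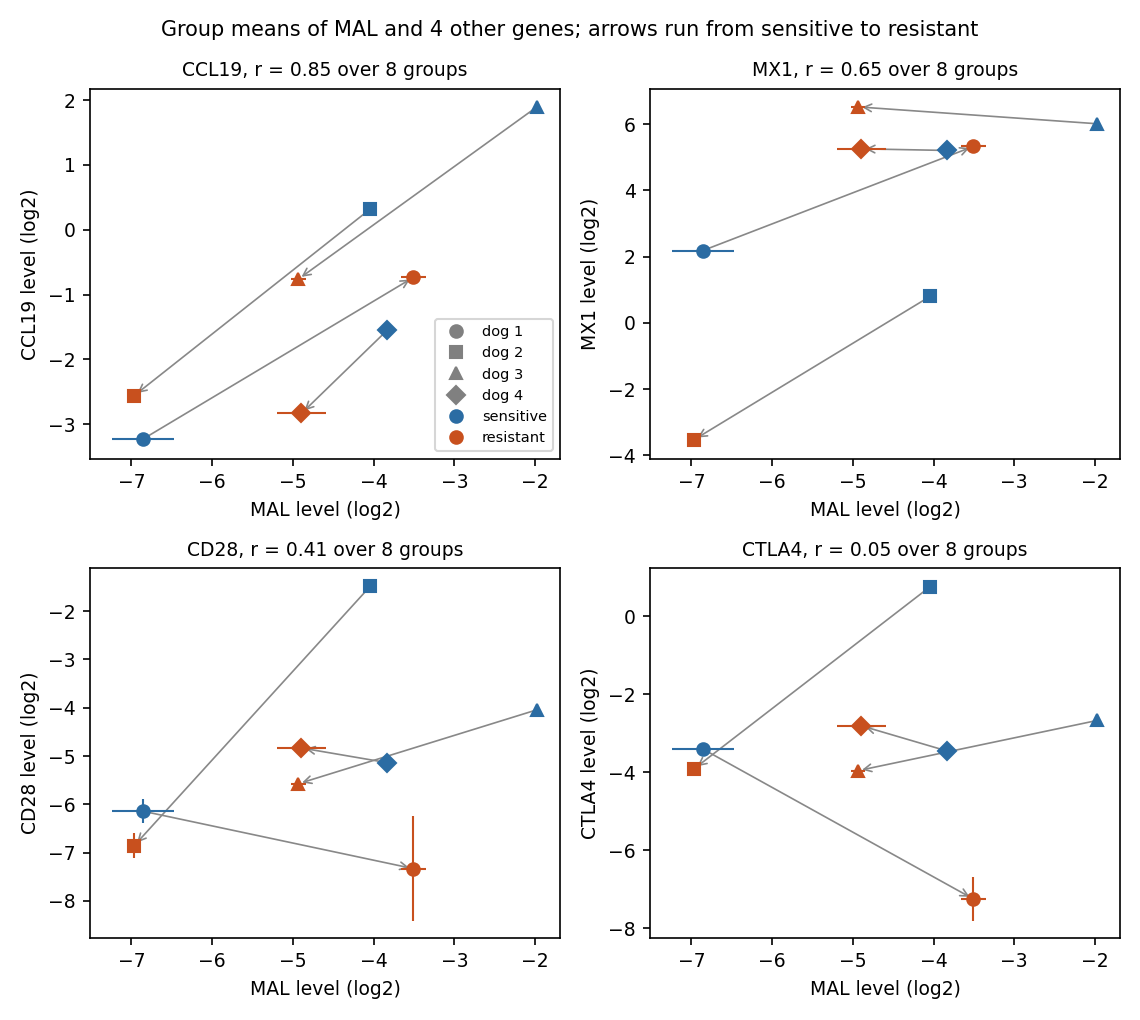
Mean level of MAL (x axis, log2) against that of CCL19, MX1, CD28 and CTLA4 (y axes, log2) in the 8 groups; bars are SD of 3 arrays, symbols are dogs, blue is sensitive and orange resistant, and arrows run from sensitive to resistant. The 4 arrows of CCL19 all point along the same diagonal (r = 0.85), MX1 follows it in dogs 1 and 2 only, and the arrows of CD28 and CTLA4 in dog 1 run against those of dogs 2 and 3.

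Of the stroma and endothelium list, 10 of 15 genes were measured, CCL19 among them, and the median r with MAL was 0.36. In dog 1, CCL19 was the 1 member that rose while 4 fell; in dog 2, 7 fell, in dog 3, 7, and in dog 4, 2, CCL19 and CXCL12. Among all transcripts 3.83% were called higher in dog 1, and the shares called lower in dogs 1 to 4 were 8.11%, 9.84%, 5.43% and 1.5%. CXCL12, another stromal chemokine gene, fell in all 4 dogs (-2.77, -1.77, -1.89 and -1.69 in dogs 1 to 4), dog 1 included, where CCL19 was higher. CCL21, the other ligand of CCR7, fell in dogs 2 and 3 (-2.80 and -1.57) and had 0.58 in dog 1 and -0.34 in dog 4 (r = 0.60). KDR, an endothelial growth factor receptor gene, fell in dogs 2 and 3 (-2.08 and -2.92), and in dog 1 its resistant level, not well above background on any of the 3 arrays, was at least 2.54-fold lower. The collagen gene COL1A2 fell in dogs 1, 2 and 3 (-3.13, -1.57 and -1.40) and had -0.55 in dog 4.

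Of other cells that could carry MAL, few markers were measured. Of 15 epithelial genes 2 were measured: CLDN3 was called in no dog (-0.99, 0.65, 0.49 and -0.17), and CFTR was called higher in dog 2 (3.02, detected on 1 of 3 sensitive arrays) and lower in dog 3 (-5.47). Neutrophil genes (5 of 12) fell for 4 and rose for 1 in dog 1, rose for 2 in dog 2, fell for 3 in dog 3 and were called for none in dog 4, and their median r with MAL was -0.15. The shares of all transcripts were 8.11% lower and 3.83% higher in dog 1, 3.98% higher in dog 2 and 5.43% lower in dog 3. The macrophage gene FCGR1A fell in dogs 1 and 3 (-3.67 and -2.65) and rose in dog 2 (1.62), while CD163 fell in dog 3 (-1.33) and was not called in the other dogs. Of 3 dendritic cell genes (14 listed) FLT3 and CCL17 fell in dog 1 (-1.09 and -2.52), though the FLT3 arrays of the phases overlapped there. In dog 3 FLT3 fell (-1.37) and CD1C rose (1.11). CCL17, the 1 measured gene of the mediastinal lymphoma list besides MAL, was called in no dog but dog 1. The plasma cell gene CD38 fell in dog 2 (-4.22), and the cell cycle gene BIRC5 was called in no dog. Among all transcripts 9.84% were called lower in dog 2 and 1.34% higher in dog 3. The part of these cells in the MAL values was not tested.

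The direction of MAL in each dog was the same in each of the 16 or 17 alternative settings that gave a value for that dog, but its size was not. Many of these settings, such as leaving out 1 array where the groups did not overlap, could not have reversed the direction. After normexp background correction with an added offset and quantile normalisation, which draws dim signals together, the differences were 1.14, -0.73, -1.73 and -0.46 in dogs 1 to 4, so that dogs 2 and 4 stayed under 2-fold. On the raw median signal, from which no background is taken, they were 1.42, -1.18, -2.18 and -0.47. Within the 1 slide that held both phases of a dog, MAL differed by 3.17 in dog 1 (1 resistant and 3 sensitive arrays), -2.92 in dog 2 (3 and 1) and -2.99 in dog 3 (1 and 3).

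**Figure D4:**
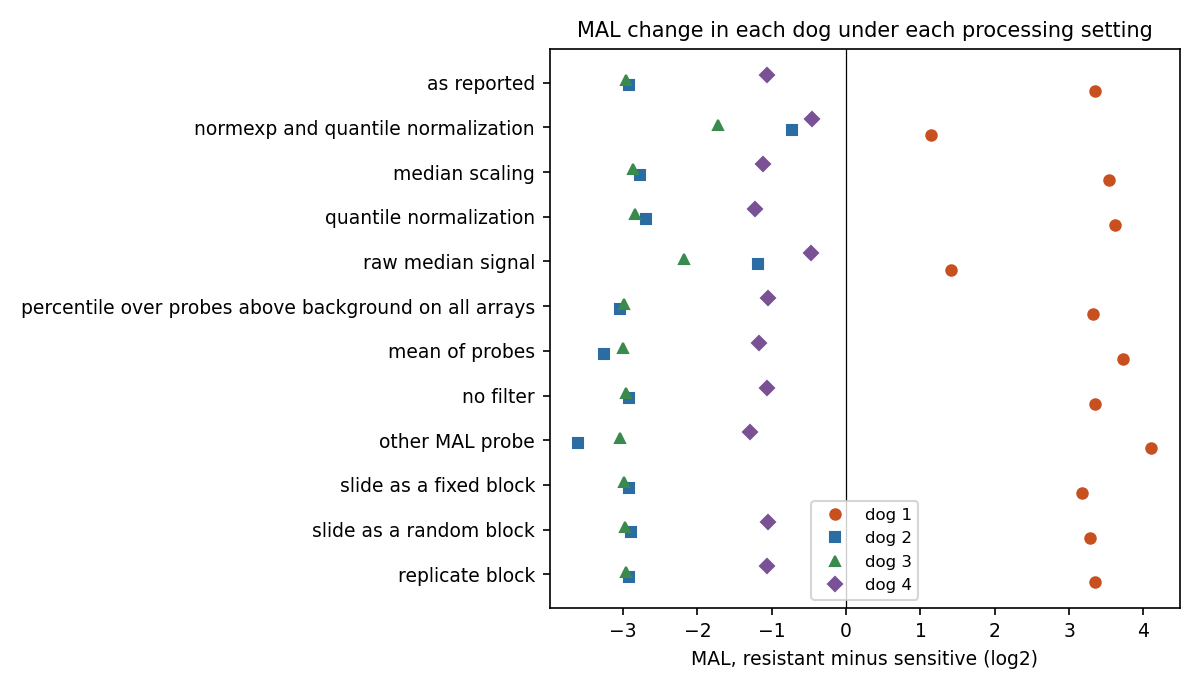
Resistant minus sensitive difference of MAL (x axis, log2) in each dog under the reported setting and 11 other settings (y axis), 1 symbol for each dog. Dog 1 lies right of 0 and dogs 2, 3 and 4 left of it throughout, and the values shrink after normexp correction (1.14 in dog 1) and on the raw signal (1.42 in dog 1); dog 4 has no value with the slide as a fixed block.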

How the data were processed

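Per the labels' protocols, aspirated cells were kept in a stabilising solution and Cy3-labelled RNA was hybridised to one-colour Agilent arrays. The deposited scanner output holds the intensity of every spot, made with Agilent Feature Extraction 10.7.3.1 per the submitters' processing notes. In its processed intensity the software had taken off background and a spatial trend array by array, per the file headers, and arrays were not scaled to each other. The authors' value table equals the raw median intensity of each spot (largest difference 0), so it is linear and uncentred, and its column medians ran from 97 to 141. A genome build was not given in the sources used here. Control spots (1417 of 45220) and outlier spots were left out, spots of 1 probe were averaged, and the brightest kept probe stood for a gene. Accessions were matched, without versions, to RefSeq genes of UU_Cfam_GSD_1.0 (832 of 35908 identifiers; 718 tested with a symbol).

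Log2 levels were fitted with limma 3.58.1 (R 4.3.3) in 8 groups sharing 1 spread per transcript, with Benjamini-Hochberg adjustment over 27720 transcripts. The fit was run on simulated arrays with independent noise and known changes in dog 1 only. These had no slide effect and no limit of detection, so they say nothing on those limits of the MAL values. Named genes were MAL, the 10 most and 5 least like it, the measured T cell and raft genes, and up to 3 genes of each other list, those of largest change in dog 1 or 2. CXCL12 and KDR were named outside that rule, after their values were seen, and some genes that the rule names are not reported here. MAL and the lists were chosen with earlier results of these data known. Same-numbered arrays of a dog's phases were not paired (r of their deviations from -0.13 to 0.09 over 12 pairs).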

Additional observations from a re-analysis of the deposited data

Results flagged for a closer look

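MAL is listed here because all arrays of dog 1 moved one way between the phases and all arrays of dogs 2, 3 and 4 the other; the difference between the largest rise and the largest fall was 6.31 on the log2 scale. MAL was chosen for this, and the difference between dogs was not tested. The same held for CCL19, with 5.37 between dog 1 and dog 2, likewise not tested. For ELANE the arrays of dog 1 and dog 3 moved in opposite directions, with 3.56 between them, which was not tested, while the phases overlapped in dogs 2 and 4.

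The 17 genes looked at were MAL, the 10 most like it and the 6 T cell genes. Of their 51 sets of 4 dogs, 5 had 1 dog far from the others. This was measured as its gap to the nearest dog divided by the whole range. The cut-off is one that chance passes in about 1 in 20 independent sets. MAL and the 10 genes like it were chosen on these same values. The change of a gene also comes from the same arrays as its levels. The count of 5 therefore cannot be set against that rate and is only a description. For CD8A the gap was 0.972 of the range for the change and 0.876 for the sensitive level, with dog 2 as the far dog each time. For the sensitive level of CD4 it was 0.859, also from dog 2. For VPS52 it was 0.910 for the resistant level, from dog 2, and for CYP2A13 0.834 for the change, from dog 1. No such gap was found for MAL.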

How the results depend on the processing

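The MAL differences kept their sign in all 67 alternative values (16 or 17 for each dog) and moved by less than 1 SD between arrays in 51. Many of these values could not have reversed. Dropping the filter or adding a replicate block left the differences as they were, and leaving out 1 array cannot reverse groups that do not overlap. MAL was also chosen for these signs, so the tally is only a description. Beside the normexp and raw-signal values of the report, quantile normalisation gave 3.62 in dog 1 and -2.69 in dog 2, the mean of the probes 3.73 and -3.26, and the other probe 4.10, -3.60 and, in dog 4, -1.30. Normexp gave 1.14, -0.73, -1.73 and -0.46 and the raw signal 1.42, -1.18, -2.18 and -0.47 in dogs 1 to 4. Leaving out 1 array gave 3.18 to 3.56 in dog 1, -2.96 to -2.88 in dog 2, -3.01 to -2.92 in dog 3 and -1.23 to -0.95 in dog 4, so that dog 4 fell under 2-fold without resistant array 2 or 3. MAL is not among the probes above background on all arrays and has no value there.

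Called transcripts numbered 3310, 3832, 1877 and 1542 in dogs 1 to 4. They were 849, 1546, 590 and 180 after normexp, 1292, 2151, 867 and 235 on the raw signal and 1538, 2152, 874 and 439 among probes above background on all arrays, with fewer probes tested in the last; without a filter dog 4 had 2583. Leaving out 1 array gave 2735 to 3835, 3406 to 4099, 1725 to 2376 and 1240 to 1929. Of the calls in dog 1, 32.1% were higher, against 46.6% after median scaling or quantile normalisation and 43.8% with the slide as a fixed block; in dog 4 the share was 73%, and 44.4% after normexp 50.9% after quantile normalisation, 52.8% on the raw signal and 57.6% among probes above background on all arrays. In dog 3 it was 19.8%, against 9.34% on the raw signal and 33.3% without resistant array 1. In dog 2 it was 28.8%, and 40.6% after median scaling, under which the median over all transcripts became 0.12 in dog 1 (-0.06 as reported) and 0.26 in dog 2 (0.11 as reported). Calls in opposite directions numbered 1049, and 218 after normexp, and calls of list members over the 4 dogs 79, and 47 after normexp. Among all transcripts 11.9%, 13.8%, 6.77% and 5.56% were called in dogs 1 to 4 as reported. The lists were chosen with earlier results of these data known, so their count only describes how it depends on the setting. The count of transcripts with the order of MAL was added after seeing the data, while the settings were planned. It was 7 as reported, 11 with median scaling, 12 with quantile normalisation and 2 after normexp. CCL19 was among them each time, and MAL was not after normexp.

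Of the 10 named genes most like MAL, 5 were shared after normexp, 5 over the 24 arrays and 3 with each dog's mean taken out; without 1 dog 1 to 7 were shared. With the replicate number as a block, MAL differed by 3.35, -2.92, -2.96 and -1.06 as before, and 3268 transcripts were called in dog 1. The causes were not tested. Signal over background limits MAL in dog 1 sensitive and dog 2 resistant.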
